A study of Homo sapiens with 6 samples.

Results

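Regions listed for NeuroD1 and for H3K4me3 near 9 genes, the Notch pathway genes NOTCH1, NOTCH2, DLL1, DLL4, JAG1, JAG2, HES1 and HEY1 and the gene of the repressor REST, were examined in H524 and H82 cells. Both are established human small cell lung cancer lines, grown without any treatment, and each gave 1 NeuroD1 library, 1 H3K4me3 library and 1 input library. The members were all listed regions that lay within 50 kb of the gene spans in build hg19, whatever their score. They came to 84 of 61250 distinct regions over the 4 peak lists, with 24 of 20593 for NeuroD1 in H524, 4 of 3854 for NeuroD1 in H82, 30 of 18595 for H3K4me3 in H524 and 26 of 18208 for H3K4me3 in H82. No region fell in the windows of more than 1 gene. With 1 library per line and antibody there are no replicates, so every difference between lines below is a difference between these libraries, with no test. The lists hold no read totals, and the depth behind them is unknown.

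In Notch signalling, a ligand on one cell (the Delta-like proteins DLL1 and DLL4, the Jagged proteins JAG1 and JAG2) engages a receptor (NOTCH1, NOTCH2) on its neighbour. The receptor is then cleaved, and its intracellular part enters the nucleus, where it joins the DNA-binding protein RBPJ and switches on repressor genes of the HES and HEY families, which hold back proneural factors. NeuroD1 is a proneural basic helix-loop-helix factor that binds E-boxes, DNA sites of the letters CANNTG. REST represses neuronal genes in cells that are not neurons, and in small cell lung cancer active Notch signalling is known to raise REST and to move cells away from the neuroendocrine state. H3K4me3 marks the starts of active genes and of genes held ready for activity.

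The promoters of HES1, DLL4, JAG1 and JAG2 are shown first. HES1, DLL4 and JAG1 had a NeuroD1 region at the start in 1 of the lines, and JAG2 had the highest-ranking NeuroD1 region of all members upstream of it. NOTCH1 also had a NeuroD1 region at its start in H524, but its promoter is not printed. Each line gives the 250 bases before the gene start, 5′ to 3′, from RefSeq (build GRCh38.p14, unlike the hg19 positions of all listed regions). Capitals mark the letters CANNTG, or TGGGAA and its reverse complement TTCCCA, the core of the site that RBPJ is known to bind.
HES1, chr3:194135898-194136147, plus strand: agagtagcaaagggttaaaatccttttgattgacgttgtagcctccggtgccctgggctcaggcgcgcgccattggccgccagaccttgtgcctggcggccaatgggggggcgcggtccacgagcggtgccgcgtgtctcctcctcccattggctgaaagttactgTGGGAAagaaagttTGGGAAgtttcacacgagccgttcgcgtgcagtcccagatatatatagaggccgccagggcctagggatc
DLL4, chr15:40929090-40929339, plus strand: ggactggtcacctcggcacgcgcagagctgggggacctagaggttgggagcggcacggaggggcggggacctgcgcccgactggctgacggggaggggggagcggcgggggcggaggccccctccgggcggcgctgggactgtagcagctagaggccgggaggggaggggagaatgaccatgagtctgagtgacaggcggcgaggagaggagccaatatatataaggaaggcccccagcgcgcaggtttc
JAG1, chr20:10674000-10674249, minus strand: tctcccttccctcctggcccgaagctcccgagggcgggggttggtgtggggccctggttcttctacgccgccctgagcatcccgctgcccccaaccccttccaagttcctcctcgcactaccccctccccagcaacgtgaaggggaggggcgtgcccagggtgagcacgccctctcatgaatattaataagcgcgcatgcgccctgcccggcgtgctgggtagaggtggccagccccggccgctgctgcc
JAG2, chr14:105168777-105169026, minus strand: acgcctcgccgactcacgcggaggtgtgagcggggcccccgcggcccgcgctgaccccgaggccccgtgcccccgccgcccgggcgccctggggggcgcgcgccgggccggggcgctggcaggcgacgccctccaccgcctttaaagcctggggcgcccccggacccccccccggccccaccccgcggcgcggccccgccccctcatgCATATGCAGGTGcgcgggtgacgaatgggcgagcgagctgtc

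Of the 9 genes, 7 had an entry in the RefSeq promoter table, with 8 entries because REST has 2 starts that lie 1010 bases apart. JAG2 was the only gene of the 7 with CANNTG in these 250 bases, as CATATG 42 bases and CAGGTG 36 bases before the start. The promoters of HES1, DLL4 and JAG1 held no CANNTG, nor did those of NOTCH1, NOTCH2 and both REST starts. Among all 35116 entries of the table, 61.8% held CANNTG in the same window. CAGATG, searched on both strands, was found in 12.2% of all entries and CAGCTG in 14%, and neither was found in any of the 8. Both are special cases of CANNTG. HES1 held TGGGAA at 84 and at 70 bases before its start, a sequence that 20.8% of all entries held on either strand and none of the other 7 entries held. The promoters were rich in G and C, from 59.2% in HES1 to 81.6% in JAG2. The absence of the letters says only that they are not in these 250 bases, and the NeuroD1 regions were not placed on these sequences because the builds differ.

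NeuroD1 was listed near 7 of the 9 genes in H524 and near 3 of 9 in H82. In H524 these were NOTCH1 with 5 regions, DLL1 with 5, DLL4 with 5, JAG2 with 4, JAG1 with 2, REST with 2 and HES1 with 1. In H82 they were HES1 with 2 regions, DLL1 with 1 and DLL4 with 1. NOTCH2 and HEY1 had none in either line. As background, 64.0% of all H3K4me3 regions of H524 had a NeuroD1 region of the same line within 50 kb, and 33.4% of those of H82 did. These shares count regions with 50 kb searched on either side, whereas the windows of the 9 genes ran from 102 to 258 kb. The shares are thus a loose guide only, and no difference from them was tested. The ligands as a group held 16 regions in H524 and 2 in H82, the receptors 5 and 0, the targets HES1 and HEY1 1 and 2, and REST 2 and 0.

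The members in H524 were 6-fold those in H82, and the whole NeuroD1 list of H524 was 5.34-fold as long as that of H82. With the H524 list limited to its 3854 highest-scoring regions, the length of the H82 list, 5 regions at 3 genes remained (NOTCH1, DLL4 and JAG2), against 4 regions at 3 genes (DLL1, DLL4 and HES1) in H82. DLL4 was thus the only gene near a region of both lists at equal length. The windows held 19.6 NeuroD1 regions per Mb in H524 and 3.26 per Mb in H82, against 7.01 and 1.31 per Mb over the whole lists. For H3K4me3 the windows held 24.5 per Mb in H524 and 21.2 per Mb in H82, against 6.33 and 6.19 per Mb. The windows were drawn around genes, whereas the whole lists also span stretches with few genes.

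**Figure D1:**
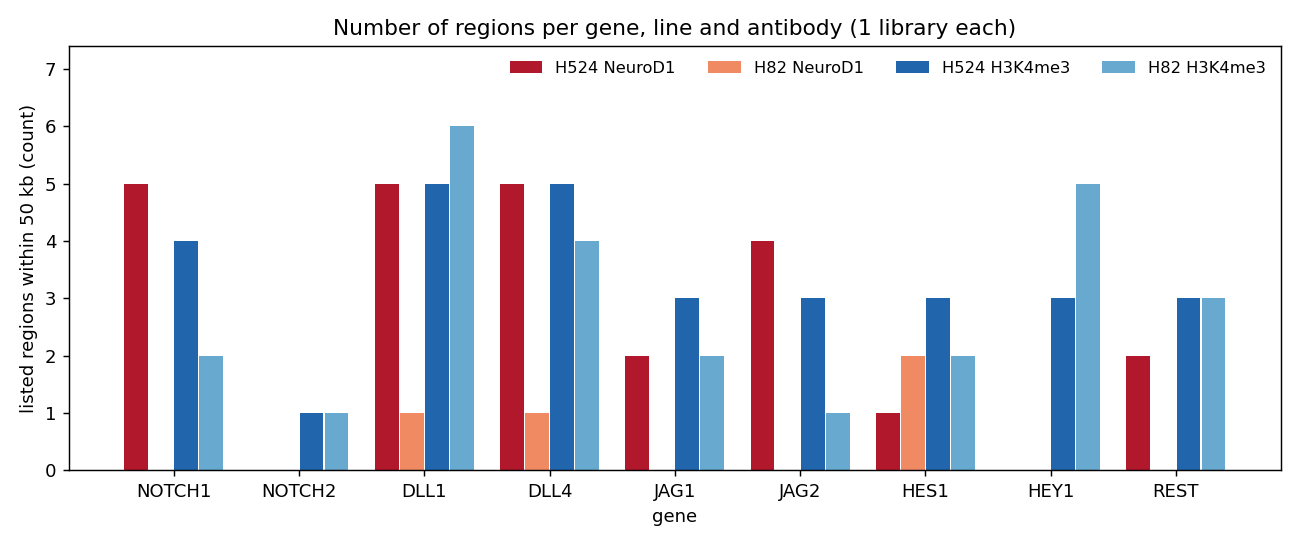
Number of listed regions within 50 kb of each of the 9 genes (y axis, count) by line and antibody, with 1 library per bar. NeuroD1 bars of H524 reach 5 at NOTCH1, DLL1 and DLL4, the only gene with more NeuroD1 regions in H82 is HES1, and every gene has at least 1 H3K4me3 region in each line.

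Regions are ranked below by their percentile, the position of their score within their own list with the highest score at 100 and ties at their mean rank. The NeuroD1 members of H524 had a median percentile of 54.8, with a range of 7.33 to 99.4, and the 4 members of H82 had a median of 32.4, with a range of 15.2 to 79.8. By construction the median of a whole list is about 50. For H3K4me3 the median was 37.7 in H524 and 29.7 in H82. At or above percentile 90 were 2 of the 24 NeuroD1 members of H524, none of the 4 of H82, and 2 H3K4me3 members of each line. Below percentile 25 were 3 NeuroD1 members of H524 and 1 of H82, and 10 of the 30 H3K4me3 members of H524 and 13 of the 26 of H82. The highest NeuroD1 member was near JAG2.

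**Figure D2:**
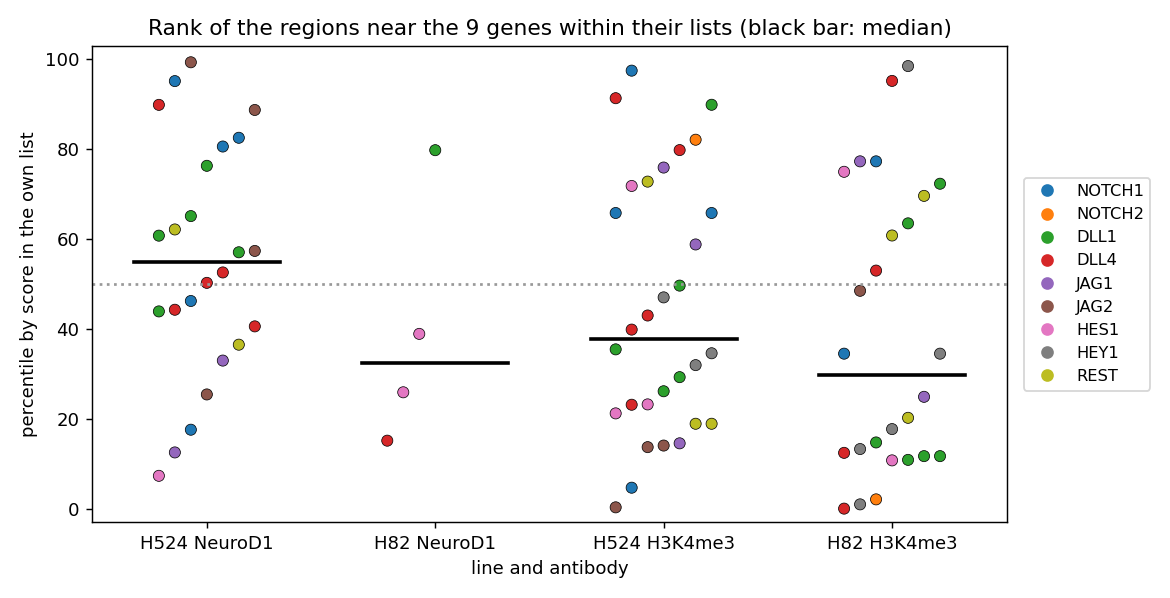
Percentile by score in the own list (y axis) of each member region, by line and antibody (x axis), coloured by gene, with the median as a black bar and percentile 50 as a dotted line. The NeuroD1 regions of H524 run from 7.33 to 99.4 around a median of 54.8, and the H3K4me3 medians of both lines, 37.7 in H524 and 29.7 in H82, lie below 50.

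Gene starts are taken from the spans of the selection rule, which are rounded to 1 kb, so a distance from a start is known to about that precision. Distances are from the middle of a region to the start, along the direction of the gene.

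Of the receptors, NOTCH1 carried NeuroD1 in H524 alone, mostly inside the gene. NOTCH1 spans 139.389 to 139.44 Mb of chromosome 9 in the rule and is read on the minus strand. Its highest NeuroD1 region, chr9:139419907-139420731, lay 19.7 kb inside the gene, had 2 summits, scored 16.6 and ranked at percentile 95.2. It neighboured chr9:139421254-139422772, also with 2 summits, which was 1519 bp wide, the widest NeuroD1 member, and ranked at percentile 82.6. These 2 regions formed an intragenic pair, and neither overlapped H3K4me3 of either line. Closer to the start, chr9:139436896-139437310 lay 2.90 kb inside the gene at percentile 46.2, and chr9:139438991-139439311 lay 0.849 kb inside at percentile 17.6. The last one overlapped the promoter mark of both lines. The remaining region, chr9:139377819-139378329 at percentile 80.6, lay beyond the end of NOTCH1, on the side where RefSeq places SEC16A. In H82 the NeuroD1 region nearest to the H3K4me3 region at the NOTCH1 start was 341 kb away.

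The NOTCH1 start was marked by H3K4me3 in both lines, in more pieces in H524. H524 had chr9:139438926-139439313 at percentile 65.8, chr9:139439575-139440030 at percentile 4.69 and chr9:139440885-139441261 at percentile 65.8. H82 had chr9:139439095-139439595 at percentile 34.5, which overlapped the first and second of these. The regions within 2 kb of the start covered 1221 bp in H524 and 501 bp in H82. The highest mark of the window was not at NOTCH1 but beyond its end, on the SEC16A side. That was chr9:139376552-139377536 in H524, at percentile 97.5, and chr9:139376777-139377543 in H82, at percentile 77.3.

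NOTCH2, the other receptor, had a promoter mark and no NeuroD1 in either line. Its window of 258 kb was the longest of the 9. The mark was chr1:120611974-120612328 in H524, with a score of 6.80 and percentile 82.1, and chr1:120611606-120612254 in H82, with a score of 1.43 and percentile 2.09. Both covered the start, shared 281 bp and held very different ranks in their lists. The NeuroD1 region nearest to them was 226 kb away in H524 and 294 kb away in H82.

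Among the ligands, DLL1 held the member with the most alike NeuroD1 calls in the 2 lines. That region lay 47.0 kb beyond the start of DLL1 and past the end of the gene, at chr6:170552506-170553399 in H524 and chr6:170552569-170553415 in H82. The intervals shared 831 bp and ranked at percentile 76.3 in H524 and 79.8 in H82. It was the highest of the 4 NeuroD1 members of H82. H524 had 4 more regions around DLL1 that H82 lacked. Downstream they were chr6:170561709-170562009 at percentile 60.8 and chr6:170575000-170575351 at percentile 57.1. In the gene was chr6:170595504-170596038 at percentile 43.9, and 6.33 kb upstream was chr6:170606180-170606481 at percentile 65.1. None of the 5 regions of H524 overlapped H3K4me3 of H524, and chr6:170561709-170562009 overlapped a weak H3K4me3 region of H82, chr6:170561814-170562194, at percentile 11.7.

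H3K4me3 at the DLL1 start was broader in H524. Within 2 kb of the start H524 had chr6:170598323-170598852, chr6:170599176-170600042 and chr6:170600611-170601042, at percentiles 26.2, 29.3 and 49.7, which covered 1829 bp. H82 had chr6:170599228-170599516 alone, 289 bp wide, at percentile 63.5. The H82 region lay wholly inside the second H524 region. Further upstream, H524 had chr6:170604621-170605263 at percentile 35.5 and H82 had chr6:170602952-170603245 at percentile 14.8. The strongest mark of the window was again farther out, 16.0 kb upstream in H524 at chr6:170615281-170616768 (percentile 89.9) and 16.3 kb upstream in H82 at chr6:170615930-170616651 (percentile 72.3). RefSeq places FAM120B on this side, reaching over DLL1. Weak regions of H82 alone were chr6:170563793-170564055 at percentile 11.7 and chr6:170617694-170618036 at percentile 10.9.

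DLL4, a ligand known for its part in blood vessel growth, had the closest upstream group of NeuroD1 regions in H524. Its span in the rule is 41.222 to 41.231 Mb of chromosome 15, with the start at the low end. In H524, chr15:41218041-41218622 lay 3.67 kb upstream at percentile 44.3, chr15:41219316-41220542 lay 2.07 kb upstream at percentile 89.9 and chr15:41221099-41221740 lay 0.581 kb upstream at percentile 50.3. The middle of these scored 11.9 and was 1227 bp wide. H82 listed no NeuroD1 region among them. The mark of H524 was chr15:41221685-41222228, which covered the start, ranked at percentile 91.4 and overlapped the last NeuroD1 region, followed by chr15:41222486-41223150 at percentile 23.1. The mark of H82 lay farther upstream, with chr15:41220307-41220609 at percentile 12.4 and chr15:41221172-41221820 at percentile 53.0, which overlapped the middle and the last NeuroD1 region of H524. The strong upstream NeuroD1 region of H524 thus lay outside the mark of its own line and overlapped a weak mark of H82.

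Farther from DLL4, the lines shared a NeuroD1 region 23.4 kb upstream of the start. It was chr15:41198418-41198867 in H524, at percentile 52.6, and chr15:41198271-41198685 in H82, at percentile 15.2. It was the second and last NeuroD1 member that overlapped between the lines, with 268 bp in common. Downstream, H524 alone had chr15:41245175-41245700 at percentile 40.6, which touched the edge of the H3K4me3 region chr15:41245701-41246370 of the same line without sharing a base. RefSeq places VPS18 upstream of DLL4 and CHAC1 and INO80 downstream. On the upstream side both lines had H3K4me3, at chr15:41186826-41187624 in H524 (percentile 79.8) and chr15:41186627-41187485 in H82 (percentile 95.2). H524 had chr15:41186098-41186364 beside it at percentile 43.0, and H82 had chr15:41233676-41234024 downstream of DLL4 with the lowest score of its list, 1.304.

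JAG1 had weak NeuroD1 regions in H524 and a marked start in both lines. The NeuroD1 region at the start, chr20:10654722-10654990, was 269 bp wide, scored 3.10, ranked at percentile 33 and overlapped H3K4me3 of both lines. The other, chr20:10646448-10646752, lay 8.40 kb inside the gene at percentile 12.5. H82 had no NeuroD1 region in the window, and its nearest one was 238 kb from the mark at the JAG1 start. For H3K4me3, H524 had chr20:10654146-10654890 at percentile 58.8, chr20:10652349-10653699 at percentile 75.9 and chr20:10655299-10655774 at percentile 14.6. H82 had a single wider region over the start, chr20:10653848-10655127 at percentile 77.3, and chr20:10652023-10652297 inside the gene at percentile 24.9. The regions that overlapped between the lines at the JAG1 start ranked at percentile 58.8 in H524 and 77.3 in H82.

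JAG2 differed from the other ligands, as its start had H3K4me3 in neither line while NeuroD1 of H524 lay upstream. The region chr14:105642455-105642994, 7.72 kb upstream of the start, scored 36.4 and had rank 132 of 20593, at percentile 99.4. It was followed upstream by chr14:105644438-105644877 at percentile 25.4, chr14:105669370-105669906 at percentile 57.4 and chr14:105679024-105679738 at percentile 88.7. The first and the last of these remained when the H524 list was limited to the length of the H82 list. All 4 lay upstream of JAG2, on the side where RefSeq places NUDT14 and BRF1, and none overlapped H3K4me3 of either line. H82 had no NeuroD1 region in the window, and its nearest one was 310 kb from the H3K4me3 region below.

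The H3K4me3 regions in the JAG2 window were far from the start, with low ranks in H524 and a rank near the median in H82. H524 had chr14:105560004-105560302, chr14:105566574-105566995 and chr14:105591411-105591723, all past the end of the gene, at percentiles 13.7, 14.1 and 0.317. The first lay 46.7 kb from the gene, and just outside the limit, 52.4 kb away, H524 had chr14:105554360-105554615 at percentile 0.398. H82 had chr14:105647350-105647649, 12.5 kb upstream, at percentile 48.5. JAG2 was the only one of the 9 genes without H3K4me3 within 2 kb of its start, and this held in both lines. It was also the promoter with both CANNTG sites shown above.

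HES1, the classical Notch target and a repressor of proneural genes, was the only gene with NeuroD1 at the start in H82. H524 had no NeuroD1 region within 45 kb of the HES1 start. Its only region in the window, chr3:193806620-193806918, lay 47.2 kb upstream at percentile 7.33, close to the limit of the rule. Just outside the limit, 52.1 kb from the gene, H524 had chr3:193800985-193801856 at percentile 92.4. H82 had both of its regions at the promoter. The region chr3:193853709-193854246 covered the start, scored 2.47 and ranked at percentile 25.9. The region chr3:193852737-193853153 lay 1.05 kb upstream, scored 3.11 and ranked at percentile 38.9. Both were below the median of the H82 list, and neither overlapped a NeuroD1 region of the longer H524 list.

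The mark at HES1 lay at similar places in the 2 lines. H524 had chr3:193852362-193852642 at percentile 23.2, chr3:193853026-193853316 at percentile 21.2 and chr3:193854557-193856135 at percentile 71.8. H82 had chr3:193852984-193853498 at percentile 10.8 and chr3:193854421-193855177 at percentile 75.0. In both lines the higher region lay inside the gene and a weaker one about 0.8 kb upstream. In H82 the upstream NeuroD1 region overlapped the weaker mark, and the NeuroD1 region over the start fitted into the gap of the mark, 0.174 kb from the stronger region. In H524 the same gap held no NeuroD1 region.

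HEY1, the other target, had marks in both lines and no NeuroD1 within 50 kb in either. The nearest NeuroD1 region was 126 kb from the mark at its start in H524 and in H82. The mark at the start held a far higher rank in H82. In H524 it was chr8:80679488-80680055, with a score of 2.80 and percentile 34.6. In H82 it was chr8:80679194-80679953, with a score of 13.7, rank 260 of 18208 and percentile 98.5, the highest H3K4me3 percentile among all members. H524 also had chr8:80678791-80679174 at percentile 32 and chr8:80677683-80678239 at percentile 47.0. H82 also had chr8:80677655-80677928 at percentile 0.978, chr8:80676975-80677348 at percentile 17.7, chr8:80681394-80681803 at percentile 34.5 and chr8:80696026-80696448 at percentile 13.3. Regions reaching within 2 kb of the start had a summed width of 1509 bp in H524 and 1170 bp in H82. Whole widths were summed, including bases beyond 2 kb. By this measure the lines differed in rank more than in extent.

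REST had no NeuroD1 at its start, and its mark lay at different places in the 2 lines. In H524 the mark was chr4:57774510-57774802, 293 bp wide and 0.656 kb inside the gene, with a score of 2.09 and percentile 18.9. In H82 it was chr4:57775404-57775920, 517 bp wide and 1.66 kb inside, with a score of 4.36 and percentile 60.8. The intervals did not overlap. Over the whole lists, 52.9% of H3K4me3 regions of H524 and 52.4% of those of H82 overlapped the other line, so a region without overlap is common. REST was the only one of the 8 genes with a marked start in both lines for which no region at the start overlapped between them. The spacing of the 2 REST starts in RefSeq, 1010 bases, is close to the distance between the marks, but the builds differ and the marks were not assigned to either start.

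The NeuroD1 regions in the REST window were in H524 alone and away from the gene. The region chr4:57737097-57737628 lay 36.6 kb upstream at percentile 62.2. The region chr4:57843730-57844187 lay past the end of REST at percentile 36.5, and overlapped H3K4me3 of both lines on the side where RefSeq places NOA1 and POLR2B. The mark there was chr4:57841906-57843750 (percentile 72.8) and chr4:57844698-57845245 (percentile 18.9) in H524. In H82 it was chr4:57843593-57846451, at 2859 bp the widest of all members (percentile 69.6), and chr4:57842056-57842698 (percentile 20.2). In H82 the NeuroD1 region nearest to the REST mark was 537 kb away.

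**Figure D3:**
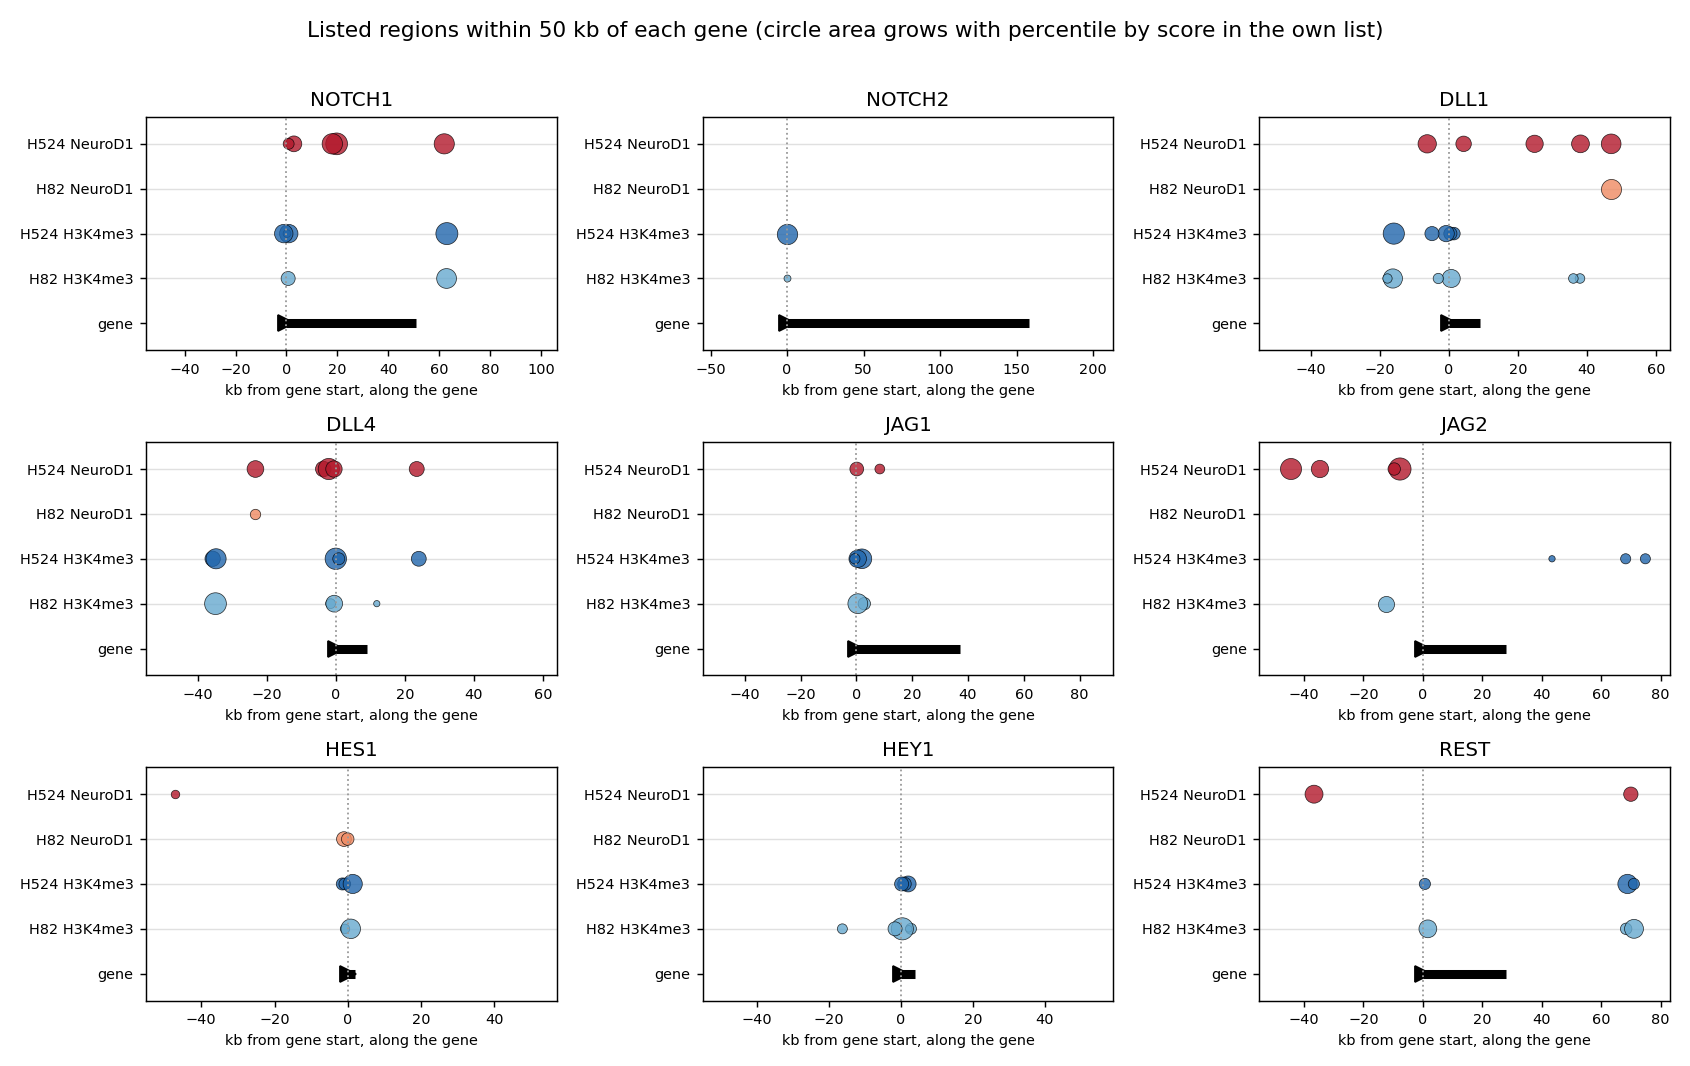
Regions within 50 kb of each gene, by line and antibody (rows), at the distance of their middle from the gene start along the gene (x axis, kb), with the gene as a black bar and circle area growing with the percentile by score. NeuroD1 circles of H524 lie inside NOTCH1, around DLL1 and DLL4 and upstream of JAG2, whereas H82 has 4 circles, at DLL1, DLL4 and HES1.

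Across the 9 genes, H3K4me3 was present within 2 kb of the start of 8 genes in H524 and of the same 8 in H82. Counting only regions that score no lower than the median of their list, the marked genes were 5 in H524 and 6 in H82, with DLL4, JAG1 and HES1 in both. At 7 of the 8, a region at the start overlapped between the lines. Marks at the starts of all genes were not counted, so these counts of genes have no background beside them. Marked length here is the summed whole width of the regions reaching within 2 kb of a start, including bases beyond it. It was larger in H524 at 6 genes (NOTCH1, DLL1, DLL4, JAG1, HES1 and HEY1) and larger in H82 at NOTCH2 and REST. In all, 19 regions with 11139 bp in sum reached within 2 kb of the starts in H524, and 11 regions with 6630 bp in H82. The whole H3K4me3 lists differed by 1.02-fold in number, with a median width of 526 bp in H524 and 563 bp in H82. Lengths at the starts of other genes were not summed, so this difference has no background beside it. Of all H3K4me3 members, 15 of 30 in H524 overlapped H82 (50%, exact Clopper-Pearson 95% interval 31.3 to 68.7, for counting error only) and 14 of 26 in H82 overlapped H524 (53.8%, 33.4 to 73.4). Over the whole lists these shares were 52.9% and 52.4%, so the members lay at the background.

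NeuroD1 lay within 2 kb of the start of 3 genes in H524 (NOTCH1, DLL4 and JAG1, with 4 regions) and of 1 gene in H82 (HES1, with 2 regions). No gene had it there in both lines. As background, 31.6% of all H3K4me3 regions of H524 and 13.1% of those of H82 had a NeuroD1 region of the same line within 2 kb. These shares count H3K4me3 regions and not gene starts, so they are a loose guide only. Of the NeuroD1 members, 4 of 24 in H524 overlapped H3K4me3 of H524 (16.7%, 4.74 to 37.4), at NOTCH1, DLL4, JAG1 and past the end of REST. In H82 it was 1 of 4 (25%, 0.631 to 80.6), at HES1. The whole-list shares were 16.0% in H524 and 29.4% in H82. On the mark of the other line lay 6 of the 24 H524 members (25%, 9.77 to 46.7) and 1 of the 4 H82 members, against 15.6% and 15.9% of the whole lists. From the side of the mark, 4 of 30 H3K4me3 members of H524 and 1 of 26 of H82 overlapped NeuroD1 of their own line, against 18.0% and 6.34%. Between the lines, 2 of 24 NeuroD1 members of H524 were shared (8.33%, 1.03 to 27.0) and 2 of 4 of H82 (50%, 6.76 to 93.2), against 9.98% and 53.6% of the whole lists. These shares lay near their backgrounds, with intervals too wide to tell them apart. NeuroD1 members of H524 were a median 8.19 kb from H3K4me3 of H524, and those of H82 a median 4.29 kb from H3K4me3 of H82, against 40.4 and 10.6 kb over the whole lists. The members were chosen near genes, which bears on this distance.

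**Figure D4:**
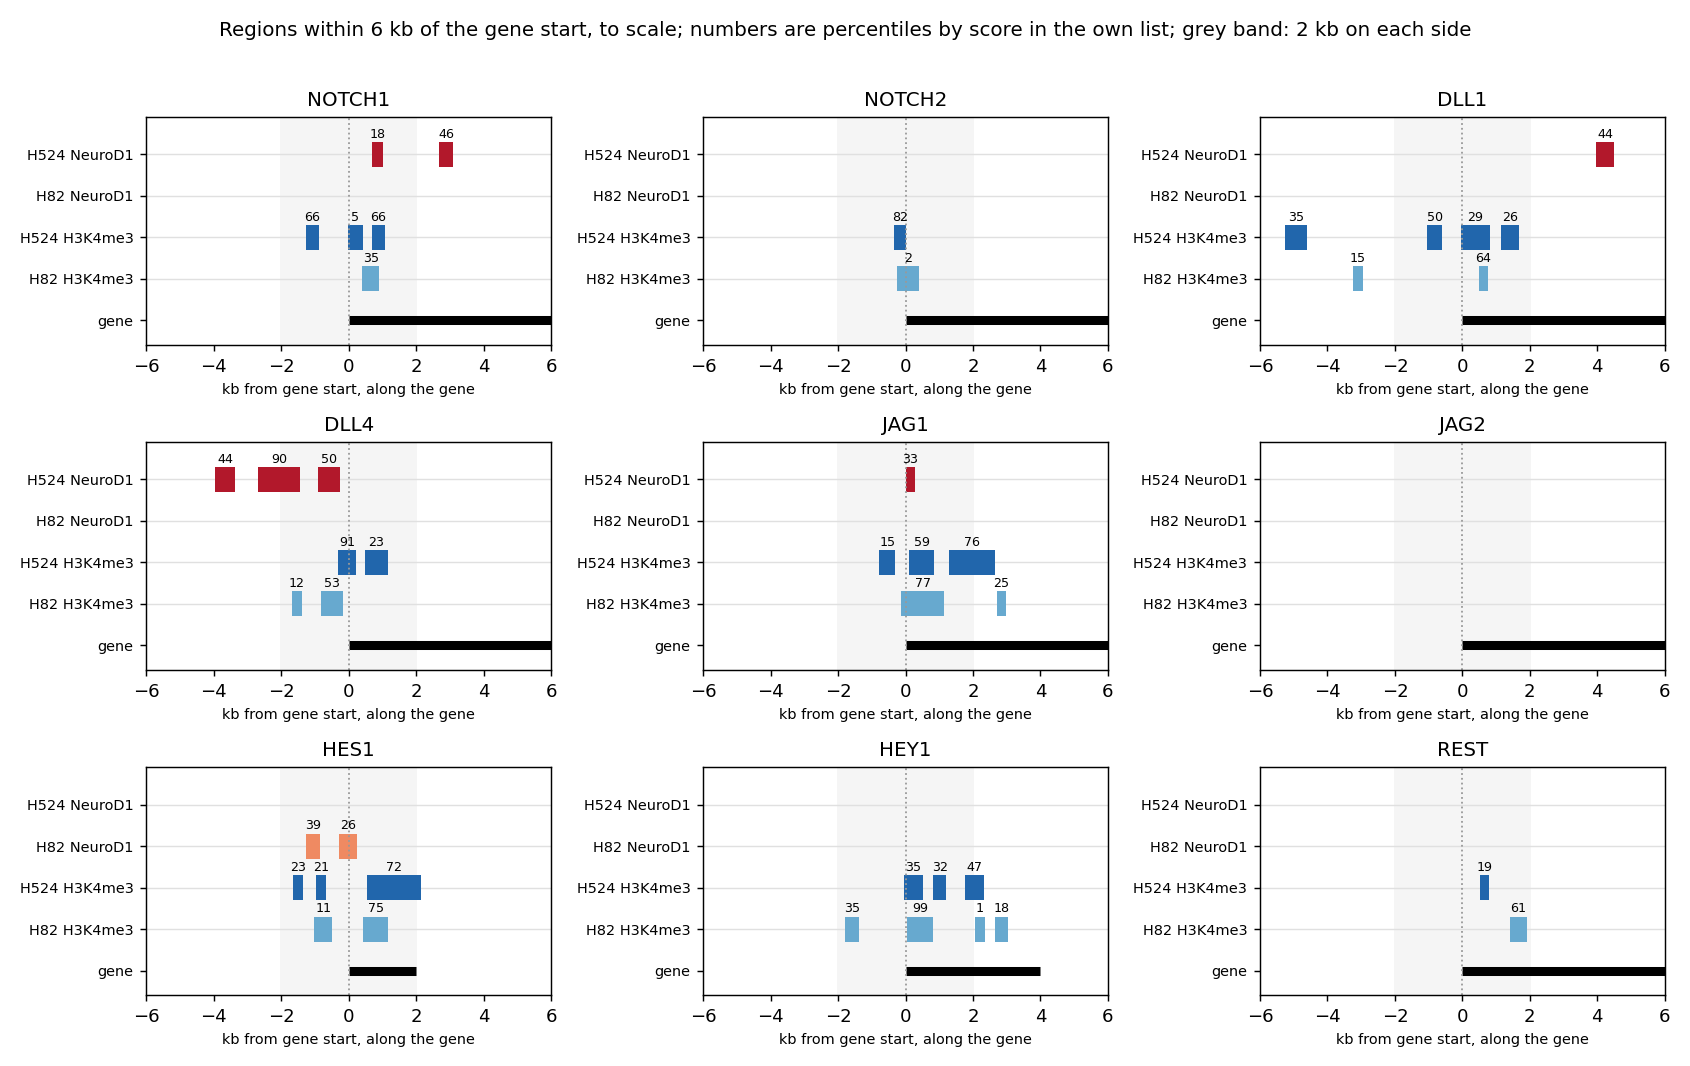
Regions within 6 kb of each gene start, drawn to scale along the gene (x axis, kb from the start) by line and antibody (rows), with the percentile by score above each. The grey band covers 2 kb on each side of the start. NeuroD1 lies in the band at NOTCH1, DLL4 and JAG1 in H524 and at HES1 in H82, the marks of REST do not overlap between the lines, and JAG2 is empty.

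A list of 21 other Notch pathway genes was read in the same way. NeuroD1 was listed within 50 kb of all 21 in H524 and of 14 in H82, beside the same 64.0% and 33.4% of H3K4me3 regions. Those shares count regions, whereas the window of a gene also includes its own length, so they are a loose guide only. The 7 genes with NeuroD1 in H524 alone were the receptor NOTCH3, the atypical ligand DLK1, the RBPJ co-activator MAML1, the glycosyltransferase MFNG, the targets HES5 and NRARP and the regulator DTX1. No gene of the list had NeuroD1 in H82 alone. NeuroD1 was within 2 kb of the start of 10 of the 21 in H524 and of 4 in H82 (DLL3, RBPJ, MAML3 and NUMB). These 4 had it at the start in H524 as well. H3K4me3 was at the start of 13 in H524 and 15 in H82, and differed at DTX1, marked in H524 alone, and at MAML1, MAML2 and LFNG, marked in H82 alone. As at JAG2, the starts of NOTCH3, NOTCH4, DLK1, MFNG and HES5 were marked in neither line, with NeuroD1 within 50 kb in H524. DLL3, an inhibitory ligand known in this cancer, is named after its values were seen. Its NeuroD1 region at the start ranked at percentile 99.8 in H524 and 82.3 in H82. At the starts of the 9 genes the highest NeuroD1 percentile was 89.9 in H524 (DLL4) and 38.9 in H82 (HES1). Other genes of the list also exceeded these values, NUMB (91.4) and HES6 (90.1) in H524 and MAML3 (92.5), RBPJ (91.7) and NUMB (79.5) in H82.

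The labelled cell type was checked by H3K4me3 at the starts of marker genes, and the marks went partly with it. NEUROD1, INSM1 and SYP, markers of neuroendocrine small cell lung cancer, were marked in both lines. CHGA, another such marker, was marked in H524 and not in H82. YAP1, a gene of non-neuroendocrine cells, was marked in H524 at percentile 32 and not in H82, and POU2F3, of the tuft cell type, was marked in neither. A mark says nothing of the amount of RNA or protein. Input libraries were not analysed here, so the part of copy number in these lists was not tested.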

How the data were processed

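NeuroD1 and H3K4me3 were measured by chromatin immunoprecipitation sequencing, with 1 library per line and antibody. Per the submitters' processing notes, the tools included the peak caller MACS2 2.1.1, the aligner Bowtie 1.1.2, ChIPseeker 1.18.0, Picard 1.118, R 3.5.1, SAMtools 1.9, Trimmomatic 0.38 and bcl2fastq 1.8.4, with build hg19. How peaks were called, and whether inputs were used, is not given in the sources used here. Scores as deposited were taken to be −log10 q-values, since the lowest values, 1.304 to 1.308, lie just above the −log10 of 0.05.

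Entries with the same interval (several summits) were merged and kept the highest score. An overlap meant 1 bp or more in common. Spans of the 9 genes came from the selection rule, and those of the other pathway genes and markers from general knowledge of hg19 gene positions, rounded to 1 kb and not checked against an hg19 annotation. Neighbouring genes were taken by name and order, and promoters by symbol, from RefSeq (GRCh38.p14). Counting was tested on simulated data. The work used matplotlib 3.10.9, scipy 1.17.1, pandas 2.3.3, numpy 2.4.6 and Python 3.11.15.

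The members and lists were chosen with earlier results of these data known. All regions of the 9 genes were to be named, and of the other pathway genes those that differ between lines. Of the planned other genes and markers, 2 are not reported here. The TGGGAA search and the NeuroD1 counts at starts were added later. Alternatives changed the window, the score limit, the list length and the overlap rule. Depth per library is unknown, so intervals cover counting error within a list only.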

Additional observations from a re-analysis of the deposited data

How the results depend on the processing

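No paired analysis was possible because each line and antibody has 1 library. Of the alternative values of the totals, shares and counts of genes, 51 stayed within 1.5-fold (counts) or within the interval (shares) and 21 did not. Of those of the counts per gene, 158 stayed and 58 did not. Part of the values that stayed could not have changed. A gene without a region gains none under a smaller window or a stricter list. The H82 lists, the shorter ones, were unchanged at equal length. The totals depended on the window and on the score limit. With a flank of 10 kb the windows held 13 NeuroD1 regions in H524, 2 in H82 (at 1 gene) and 16 H3K4me3 regions in H82. At or above the median score of each list there were 14 NeuroD1 regions in H524, 1 in H82 (at 1 gene) and 11 H3K4me3 regions in each line. H3K4me3 then marked 5 starts in H524 (NOTCH1, NOTCH2, DLL4, JAG1 and HES1) and 6 in H82 (DLL1, DLL4, JAG1, HES1, HEY1 and REST), no longer the same genes. Within 1 kb of the start it marked 8 in H524 and 7 in H82, without REST in H82. Above the median score NeuroD1 lay at 1 start in H524 (DLL4) and 0 in H82.

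With lists of equal length per antibody, NeuroD1 in H524 had 5 regions at 3 genes. Of these, 0% overlapped NeuroD1 of H82 and 0% overlapped H3K4me3 of H524, and 0% of the 4 H82 regions overlapped NeuroD1 of H524. At or above the median score, the single H82 NeuroD1 region overlapped H524 (100%) and not H3K4me3 (0%). Requiring 50% of the shorter region also gave 0% of H82 NeuroD1 regions on H3K4me3. Counting regions within 1 kb raised the share of H524 H3K4me3 regions found in H82 to 76.7%. Whole-list shares were not computed under these alternatives, so the shares in this paragraph have no background beside them and cannot be judged against one. The NeuroD1 counts at starts were chosen after seeing the data. With 4 regions in H82, a change of 1 region moves a share by 25 points.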
